A study of Mus musculus with 4 samples.

Results

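The genes of cholesterol synthesis, uptake and efflux were followed on 4 Affymetrix arrays of mouse fat RNA, by taking every probe set that carries the symbol or gene ID of a list of 32 genes. A probe set is a group of short probes meant to read a transcript, and some hold probes shared between transcripts. The list matched 57 of the 22626 probe sets, for 31 of the 13108 genes measured, and Insig1 was not analysed here. Msmo1 was found under an older symbol, Sc4mol. By role, 20 of the 31 were enzymes of synthesis, 3 controlled the SREBP transcription factors, 3 served sterol transport and storage, and 5 served efflux and its control by LXR.

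In the cell experiment, primary adipocyte cultures from mouse visceral fat received DMSO or 10 µM forskolin, which switches on adenylyl cyclase and so raises cAMP, for 2 h. In the other experiment, epididymal fat pads came from control mice on normal chow or from mice fed for 12 weeks on a high fat diet, labelled as 60%. Both fat columns are headed WT. The sources used here do not give the strain, age, sex or number of the mice, any pooling, or how the cultures were made. Each group held 1 array, so no test was run, no difference below has a replicate check, and a treatment cannot be told apart from variation between cultures, mice or arrays.

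Cells make cholesterol from acetyl-CoA through mevalonate, the isoprenoid farnesyl diphosphate, squalene and lanosterol. When the endoplasmic reticulum is low in sterol, SCAP carries SREBP-2, the product of Srebf2, to the Golgi for activation, and SREBP-2 then drives most genes of synthesis and uptake, whereas INSIG proteins hold it back. When sterol is plentiful, oxysterols activate the LXR receptors, which drive the export pumps ABCA1 and ABCG1 and the carrier ApoE. Fat holds much of the cholesterol of the body, most of it unesterified in membranes and on the lipid droplet surface, and makes little of it in comparison with the liver.

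Median intensity over all probe sets ran from 236 to 314 on the 4 arrays, as the authors deposited the values. Among 9 measured adipocyte markers, 8 stood above the median gene on each array, and Adipoq, the adiponectin gene, lay between 9962 and 10456. The cultures were low in endothelial and mesothelial markers and not in all markers of macrophages and fibroblasts. The 6 endothelial markers summed to 407 and 382 on the vehicle and forskolin arrays, against 9402 in chow fat and 6213 in high fat diet fat, and Pecam1 was below the floor described next in both cultures. The 5 mesothelial markers summed to 178 and 176 in the cultures. With vehicle, 3 of the 12 macrophage markers and 2 of the 6 fibroblast markers were above the median gene level of 307. These were Csf1r, Lgals3 and Cd14 at 3293, 11541 and 814, and Dcn and Col1a2 at 1513 and 1106. The rest were below it. Among the macrophage markers these ran from Cd68 at 305.9, just under that level, and Mpeg1 at 240 to Fcer1g at 59.0 and Tyrobp at 20.0. With forskolin, 5 of the 12 macrophage markers were above the median gene level of that array. No listed marker was at 0 on any array. In whole fat, fewer cells of a type and less RNA per cell cannot be told apart.

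Levels below are intensities of 1 probe set per gene, the brightest over the 4 arrays, and differences are on the log2 scale. Intensities under the 10th percentile of an array, between 22.1 and 26.0, were raised to it first. The chosen probe sets of all 31 genes were above these floors. A gene is called higher or lower when it differed at least 2-fold.

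With forskolin the cholesterol genes, like most genes, were close to vehicle, with Pmvk as the exception. Of the 31 genes, 1 was at least 2-fold higher and 0 were lower, while 29 lay within 1.5-fold. Over all 13051 genes compared, 1.93% were at least 2-fold higher and 1.09% lower. The share of all genes within 1.5-fold was not computed. On the log2 scale, 4043 of all genes lay between -0.2 and 0 and 4223 between 0 and 0.2. Closeness to vehicle was thus not particular to the cholesterol genes. The median log2 difference was 0.01 for the 20 synthesis genes, 0.04 for the 5 efflux genes and 0.00 for all genes.

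Pmvk encodes phosphomevalonate kinase, which adds the second phosphate to mevalonate. Its level was 476 with vehicle and 1077 with forskolin, a 2.26-fold difference. The authors' deposited table bounds this fold at 1.98 and 2.62, without a confidence level. The enzymes on either side of it in the pathway were not 2-fold apart. Mvk, mevalonate kinase, was at 375 and 367, and Mvd, the decarboxylase that follows, was at 374 and 459.9, 1.23-fold higher.

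Genes in the authors' deposited table carry a class by whether their promoter is predicted to hold a CRE, the element recognised by the cAMP-responsive factor CREB, and whether it has a TATA box. Among the 31 genes, 4 were classed CRE_TATA, 8 CRE_NoTATA and 16 others, and 3 had no class. The 4 in CRE_TATA were Pmvk, Fdps, Ebp and Sc5d, and their forskolin differences were 1.18, 0.06, -0.14 and -0.11 on the log2 scale. The 8 in CRE_NoTATA ran from -0.11 to 0.38. Pmvk was the only gene of all 31 that was 2-fold apart with forskolin, whatever the class. The share of each class among all genes was not computed, and a link between class and difference was not tested.

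Promoter sequence was available for 25 of the 31 genes, from RefSeq on GRCm38.p6, as windows from 250 bases before to 50 after each annotated start. Both strands were searched for the palindromic CRE (TGACGTCA), for its shorter form (TGACG), which lies within it, for the CCAAT box bound by NF-Y, a usual partner of SREBP, and for a form of the sterol response element or SRE (TCACNCCAC). The palindromic CRE was present for 0 of the 25 genes, against 2.03% of all 27025 genes with such windows, and its shorter form for 11 of 25, against 23.0%. The CCAAT box was present for 19 of 25, against 41.1% of all genes, and the SRE form for Hmgcs1 alone, against 1.44%. A match describes letters and is not a site shown to be in use.

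Pmvk has 2 annotated starts, and both windows are printed because the gene was 2-fold apart in both experiments. They lie at chr3:89454291-89454590 and chr3:89459321-89459620, both on the plus strand. In all sequences here, printed 5′ to 3′ on the strand of the gene, capitals mark the searched motifs as they read on either strand.
Pmvk upstream start: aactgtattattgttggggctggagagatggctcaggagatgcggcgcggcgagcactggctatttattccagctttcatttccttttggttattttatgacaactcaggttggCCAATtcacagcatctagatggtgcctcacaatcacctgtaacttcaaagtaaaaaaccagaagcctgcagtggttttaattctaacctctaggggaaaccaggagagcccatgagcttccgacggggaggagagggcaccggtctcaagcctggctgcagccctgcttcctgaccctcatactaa
Pmvk downstream start: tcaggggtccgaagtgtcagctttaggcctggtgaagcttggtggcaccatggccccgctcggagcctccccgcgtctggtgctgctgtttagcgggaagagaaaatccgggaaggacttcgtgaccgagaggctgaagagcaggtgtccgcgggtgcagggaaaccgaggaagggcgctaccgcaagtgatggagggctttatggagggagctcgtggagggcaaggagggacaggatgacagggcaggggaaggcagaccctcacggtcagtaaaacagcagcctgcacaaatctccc
The upstream window holds 1 CCAAT box, which begins at -136 relative to the start. The downstream window holds none of the searched motifs, and neither holds a CRE form.

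The other gene more than 1.5-fold apart with forskolin was Abca1, the pump that loads cholesterol onto apolipoprotein A-I. Its brightest probe set read 448 with vehicle and 803 with forskolin, 1.79-fold higher. A dim probe set read 46.2 and 85.9, 1.86-fold higher, but the remaining one read 1165 and 1255, only 1.08-fold higher. So the probe sets of Abca1 shared a direction and not a size.

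The rest of the efflux group stayed near vehicle. Abcg1, the pump that exports cholesterol to HDL, stood at 326 and 422, and the authors' deposited table bounds its difference of 1.3-fold at 0.63 and 2.70, on both sides of 1. The LXR genes Nr1h3 and Nr1h2 were 1.04-fold and 1.08-fold lower, and Apoe was 1.03-fold higher.

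Among the sterol enzymes, by the brightest probe set, Cyp51, the lanosterol demethylase, had the highest forskolin difference, at 105 and 137 (1.31-fold). Lss, lanosterol synthase, had the lowest, at 1805 and 1493 (1.21-fold lower). Other Lss probe sets were 1.29-fold higher and 1.13-fold lower. A dim Sc5d probe set was 2.05-fold lower, at 54.9 and 26.8, where the brightest was 1.08-fold lower. Over all genes with several probe sets, the median gap between probe sets of 1 gene was 0.26 on the log2 scale in this comparison. The probe sets of Srebf2 pointed opposite ways, 908 against 766 by the brighter and 494 against 652 by the other. Scap, Insig2 and Npc1 differed by 1.13-fold, 1.01-fold and 1.14-fold. Stard4, a carrier that moves cholesterol between membranes, was 1.21-fold higher at levels of 143 and 173. Soat1 was 1.15-fold lower, at 439 and 383.

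**Figure D1:**
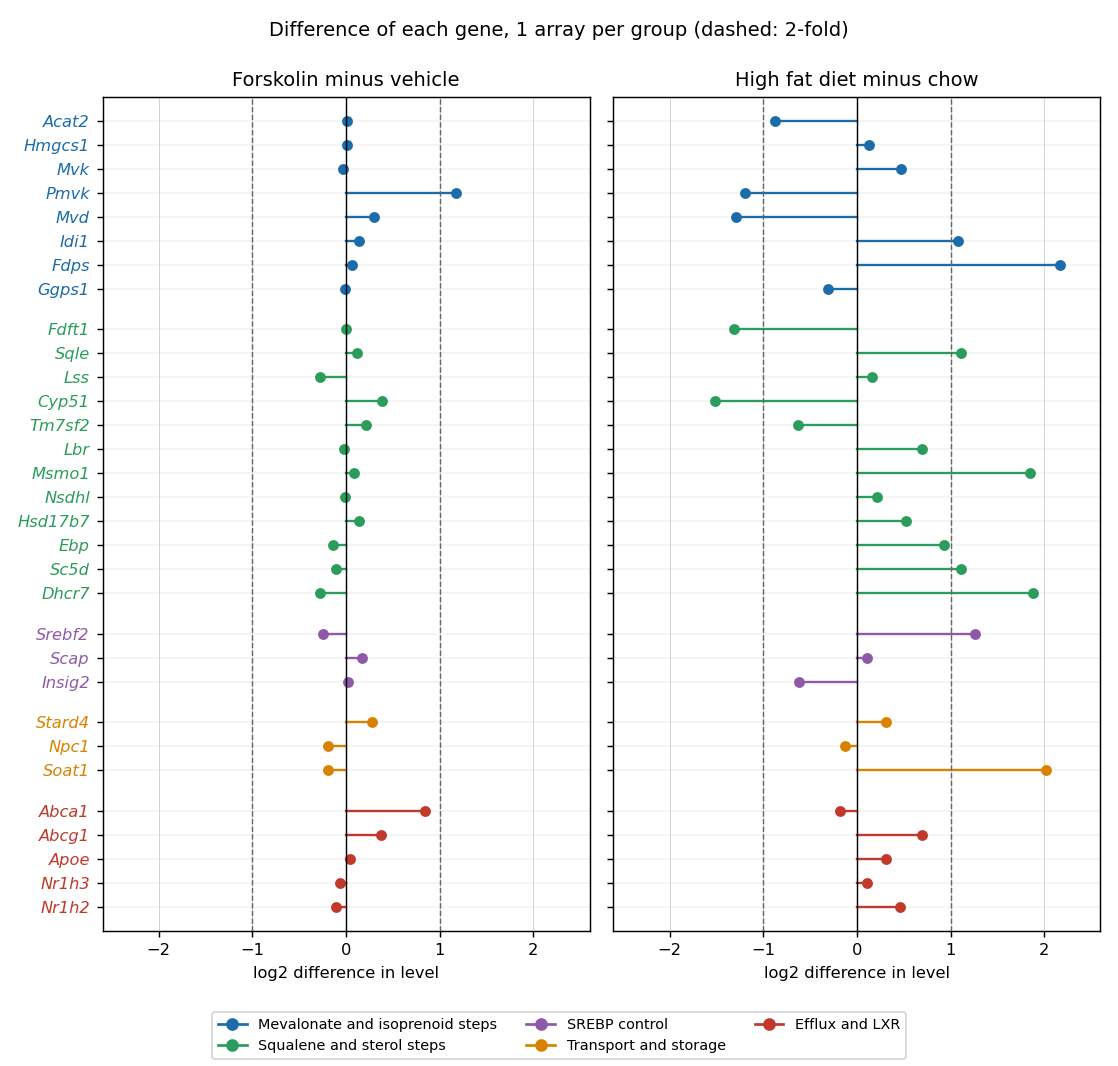
Difference of each gene on the log2 scale, forskolin minus vehicle on the left and high fat diet minus chow on the right, with genes in pathway order from top to bottom and coloured by role. Each point is 1 array against 1 array with no error to show, and the dashed lines mark 2-fold. Pmvk alone passes a line on the left, at 1.18, while 12 genes pass one on the right.

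The diet comparison went both ways within the synthesis pathway. On the high fat diet array, 6 of the 20 synthesis genes were at least 2-fold higher, namely Idi1, Fdps, Sqle, Msmo1, Sc5d and Dhcr7, and 4 were at least 2-fold lower, namely Pmvk, Mvd, Fdft1 and Cyp51. These are 30% and 20% of the synthesis genes, where 12.2% of all 12939 genes were higher and 7.43% lower. The median log2 difference was 0.34 for synthesis genes and 0.05 for all genes. That 0.05 equals the value of a probe set at the floor on both arrays, where none of the synthesis genes lay. Over the 7183 genes whose brighter array reached its median gene level, the median was 0.17. Of the 20 synthesis genes, 16 reached it, and the 2-fold shares of all such genes were not computed. With quantile normalized arrays the synthesis median was 0.11, and with arrays centred on the median gene 0.13. Under each of these settings 3 synthesis genes were higher and 5 lower, so more were lower than higher. The shares of all genes were not computed under these settings, so an excess over all genes is not shown there. Over all 31 genes, 8 were higher, 4 lower and 13 within 1.5-fold.

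In the mevalonate steps, 2 of 8 genes were higher and 2 lower. Fdps makes farnesyl diphosphate, the branch point to sterols, ubiquinone and prenylated proteins. It read 158 on chow and 713 on high fat diet, 4.50-fold higher, with bounds of 3.45 and 6.33 in the authors' deposited table. Idi1, which makes the allylic isoprene unit that Fdps uses, read 247 and 522, 2.12-fold higher. Directly upstream of both, Pmvk read 932 and 406, 2.30-fold lower, and Mvd read 919.5 and 375, 2.45-fold lower by its brightest probe set. The other Mvd probe set read 96.6 on chow and 165 on high fat diet, 1.71-fold higher, and with the median over both Mvd was at -0.26 on the log2 scale. Fdps and Idi1 were thus higher and Pmvk lower, while Mvd had no direction that both its probe sets shared.

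The remaining mevalonate genes were less than 2-fold apart. Acat2, the thiolase that joins acetyl-CoA units, read 2565 and 1399, 1.83-fold lower, by a probe set whose suffix marks probes shared between transcripts. Hmgcs1, which makes HMG-CoA, read 3283 and 3597, 1.10-fold higher, and another of its probe sets was 1.25-fold lower. Mvk read 253 and 349.96, 1.39-fold higher. Ggps1 makes geranylgeranyl diphosphate, an isoprenoid outside the sterol branch. It read 539 and 436, 1.24-fold lower, and all 4 of its probe sets were lower, 1 of them by 2.06-fold.

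Of the 12 squalene and sterol enzymes, 4 were higher and 2 lower, with a median log2 difference of 0.61. Centring the arrays lowers this and every other diet difference by 0.21. Dhcr7, which reduces the immediate precursor to cholesterol, read 133 and 491, 3.68-fold higher. Msmo1, which oxidises methyl groups on the sterol ring for removal, read 279 and 1005, 3.60-fold higher. Sc5d, the desaturase just before Dhcr7, read 646 and 1390.5, and Sqle, squalene epoxidase, read 154 and 331, both 2.15-fold higher. The levels of Sqle were below the median gene on both fat arrays. Of these 4, Dhcr7, Msmo1 and Sc5d act after lanosterol and Sqle before it. Ebp, the sterol isomerase next to Sc5d, was just inside the threshold at 904 and 1727, 1.91-fold higher.

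The first committed enzyme of sterol synthesis was lower. Fdft1, squalene synthase, which takes up the product of Fdps, read 1319 and 531, 2.48-fold lower. Its other probe set read 1256 and 444, 2.83-fold lower, so both gave the same direction. Cyp51 read 302 and 106, 2.85-fold lower, at levels below the median gene. Another Cyp51 probe set read 94.3 and 124, 1.31-fold higher, and the median over the Cyp51 probe sets was -0.83 on the log2 scale, which is not 2-fold.

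Tm7sf2 and Lbr encode sterol reductases for the same step and differed in direction. Tm7sf2 read 435 and 281, 1.55-fold lower, and Lbr, also an anchor of chromatin at the nuclear envelope, read 1161 and 1876, 1.62-fold higher. Lss, Nsdhl and Hsd17b7, whose products close the sterol ring or trim it, were 1.12-fold, 1.16-fold and 1.43-fold higher.

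**Figure D2:**
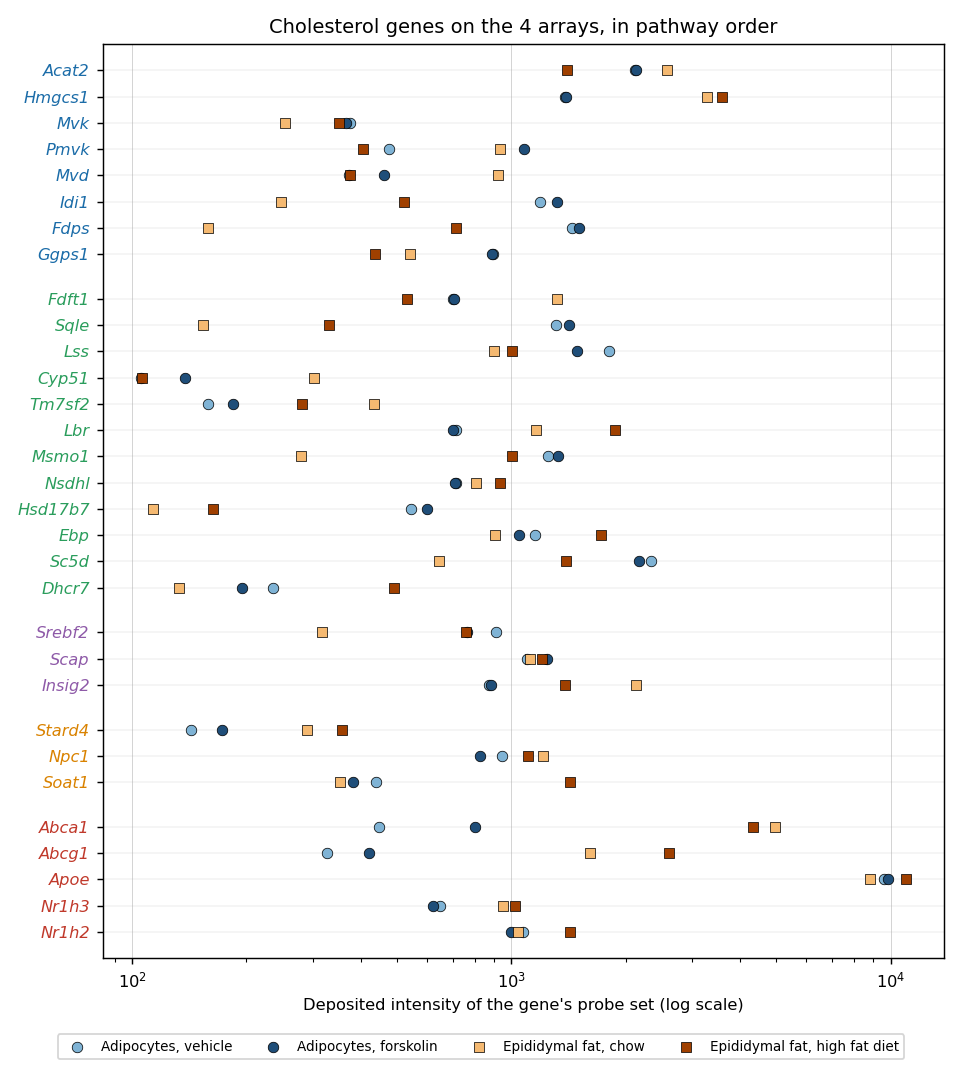
Deposited intensity (log axis) of the chosen probe set of each gene on each of the 4 arrays, circles for cultured adipocytes and squares for epididymal fat, with gene names coloured by role. For Fdps, Sqle, Msmo1 and Srebf2 the chow square lies left of the other 3 symbols, while for Mvd and Cyp51 the high fat diet square lies left of the chow square and close to the vehicle circle.

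In that plot the circles of a gene mostly lie close together, with Pmvk and Abca1 the widest apart, and its squares are often far apart. Among the 20 synthesis genes, the chow array held the lowest of the 4 levels for 10 (50%), against 30.2% of all 12883 genes with 4 values. It held the highest for 5 (25%), against 30.0% of all genes.

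Promoters of Msmo1 and Idi1 are printed because the high fat diet array was higher for both, that of Mvd because it was lower by its brightest probe set, and that of Hmgcs1 because it holds the SRE form while its level differed little. These genes were chosen after their values were seen. The windows lie at chr8:64733529-64733828 on the minus strand for Msmo1, chr13:8885356-8885655 on the plus strand for Idi1, chr8:122443373-122443672 on the minus strand for Mvd and chr13:119690101-119690400 on the plus strand for Hmgcs1.
Msmo1: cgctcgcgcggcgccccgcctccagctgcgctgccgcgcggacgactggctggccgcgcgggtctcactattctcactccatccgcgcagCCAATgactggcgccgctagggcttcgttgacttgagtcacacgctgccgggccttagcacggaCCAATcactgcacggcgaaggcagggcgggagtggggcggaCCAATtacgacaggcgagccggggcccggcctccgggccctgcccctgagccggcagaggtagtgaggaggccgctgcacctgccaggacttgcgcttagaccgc
Idi1: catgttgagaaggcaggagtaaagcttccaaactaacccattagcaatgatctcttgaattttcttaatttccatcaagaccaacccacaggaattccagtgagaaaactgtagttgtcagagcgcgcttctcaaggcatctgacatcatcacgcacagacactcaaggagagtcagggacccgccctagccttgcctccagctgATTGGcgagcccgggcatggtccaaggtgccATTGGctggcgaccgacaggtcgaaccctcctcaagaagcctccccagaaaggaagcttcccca
Mvd: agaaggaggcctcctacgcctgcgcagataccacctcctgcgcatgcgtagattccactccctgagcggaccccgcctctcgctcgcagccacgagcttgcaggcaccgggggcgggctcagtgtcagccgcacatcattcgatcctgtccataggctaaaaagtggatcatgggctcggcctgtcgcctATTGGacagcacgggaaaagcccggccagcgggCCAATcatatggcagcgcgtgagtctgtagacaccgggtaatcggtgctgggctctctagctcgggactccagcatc
Hmgcs1: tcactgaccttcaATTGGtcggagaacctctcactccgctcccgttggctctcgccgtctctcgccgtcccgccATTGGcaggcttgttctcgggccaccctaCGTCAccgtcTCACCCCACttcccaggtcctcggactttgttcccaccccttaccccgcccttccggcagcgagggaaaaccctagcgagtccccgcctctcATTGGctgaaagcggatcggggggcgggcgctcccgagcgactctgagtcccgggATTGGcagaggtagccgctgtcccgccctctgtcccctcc
Msmo1 carries 3 CCAAT boxes, which begin at -160, -96 and -55 relative to the start, and Hmgcs1 carries 4, at -237, -176, -45 and 11. The SRE form of Hmgcs1 begins at -137 and a short CRE form at -147. Idi1 carries CCAAT boxes at -45 and -14 and Mvd at -60 and -27. Idi1 was higher on the high fat diet, while the probe sets of Mvd disagreed in direction.

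Several genes gave different answers from different probe sets in the diet comparison. Of the 31 genes, 16 had more than 1 probe set, and 5 of these (31.2%) had probe sets on both sides of no change, against 44.9% of all 5048 such genes. For Mvd, Cyp51 and Lss, 1 probe set was at least 2-fold lower while another was higher. The direction of these 3 genes therefore rests on the choice of probe set. A dimmer probe set of Mvk read 31.97 and 212, 6.64-fold higher, where the chosen one gave 1.39-fold. The other Fdps probe set had no level above 26.2 on any array and so measured no difference.

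**Figure D3:**
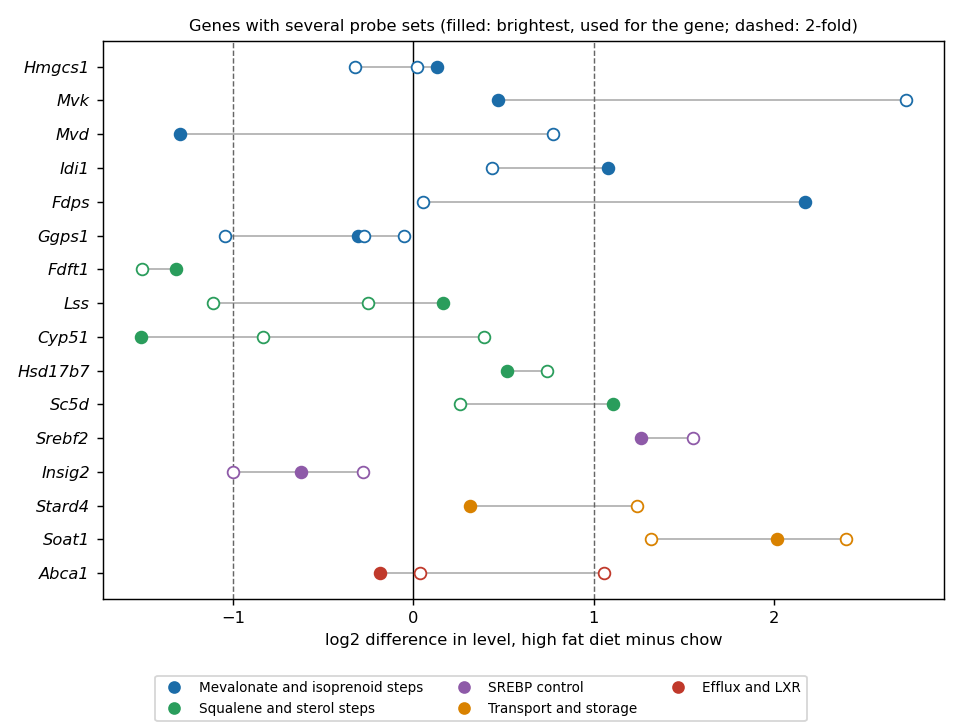
High fat diet minus chow on the log2 scale for every probe set with both values, for the 16 genes with more than 1, filled where the probe set is the brightest and was used for the gene. Srebf2, Soat1, Idi1, Sc5d and Hsd17b7 keep to the right of 0 and Fdft1, Insig2 and Ggps1 to the left, while the points of Mvd, Cyp51, Lss, Hmgcs1 and Abca1 fall on both sides.

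Of the SREBP controls, the factor itself was higher on the high fat diet. Srebf2 read 317 on chow and 758 on high fat diet, 2.39-fold higher, and its second probe set, at 239 and 699.6, was 2.92-fold higher. Insig2, whose protein keeps the complex of SCAP and SREBP in the endoplasmic reticulum, read 2125 and 1381, 1.54-fold lower. All 3 Insig2 probe sets were lower, from 1.21-fold to 2.00-fold. Scap, the escort, differed by 1.07-fold, at 1119 and 1202.

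Of the transport and storage genes, Soat1 stood apart. It encodes the enzyme that esterifies cholesterol for storage, which macrophages use when they become foam cells. Its level was 353 on chow and 1425 on high fat diet, 4.04-fold higher, and the other 2 probe sets with both values were 5.26-fold and 2.50-fold higher. Npc1, which lets cholesterol out of lysosomes, read 1209 and 1105, 1.09-fold lower. Stard4 read 288 and 358, 1.24-fold higher, and by its dimmer probe set 51.7 and 122, 2.36-fold higher.

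No efflux gene was 2-fold apart between the diets by its brightest probe set. Abcg1 had the highest difference of the group, at 1613 on chow and 2607 on high fat diet, 1.62-fold higher. Abca1 read 4941 and 4344, 1.14-fold lower, and its other 2 probe sets were 1.03-fold and 2.08-fold higher. Nr1h2 was 1.38-fold and Nr1h3 1.08-fold higher. Apoe, the lipoprotein carrier gene, read 8839.6 and 10992, close to the highest intensity of those arrays, 13698 and 13228. The efflux median was 0.31 on the log2 scale, and 0.02 with quantile normalized arrays. By the brightest probe sets, the 20 synthesis genes spread from -1.51 to 2.17 and the 5 efflux genes from -0.19 to 0.69. A range widens with the number of genes, so these spreads are not alike.

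All 11 macrophage markers with both values were higher on the high fat diet array. Of these, 9 were at least 2-fold higher, their median was 6.49-fold, and their summed intensity was 19873 on chow and 84539 on high fat diet. Adgre1 read 989 and 6562, and Cd68 read 813 and 8473. In the cultures the full list of 12 summed to 16969 with vehicle and 17585 with forskolin, of which Lgals3 gave 11541 and 11799 and Csf1r 3293 and 3189, while Tyrobp was below the floor on both. Markers of other cell types also differed between the diets. Mesothelial markers summed to 2346 on chow and 1050.5 on high fat diet, and fibroblast markers to 20351 and 30236. The 9 adipocyte markers summed to 68134 and 57228 and went both ways around a median log2 difference of -0.07, with Lep 6.83-fold higher, Retn 3.48-fold lower and Cfd 2.13-fold lower. The part of these shifts in the differences of Soat1, Abcg1, Srebf2 and the synthesis genes was not tested.

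**Figure D4:**
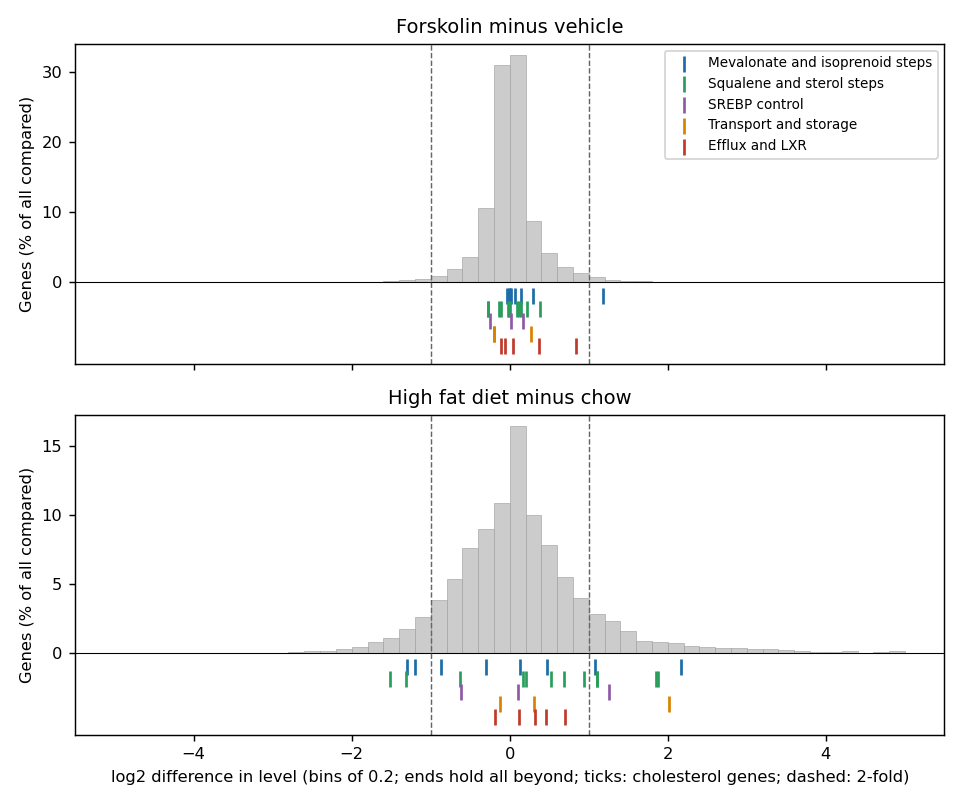
Distribution of the log2 difference over all genes (grey bars, % of genes per bin of 0.2) for forskolin minus vehicle above and high fat diet minus chow below, with a tick for each cholesterol gene under the bars in the colour of its role. Forskolin ticks bunch near 0 with Pmvk at 1.18. Diet ticks of the 20 synthesis genes reach -1.51 and 2.17, and those of the 5 efflux genes lie between -0.19 and 0.69.

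Further genes of the sterol and SREBP pathways were compared in the same way. With forskolin, 0 of the 29 measured were at least 2-fold higher or lower, where 1.93% of all genes were higher and 1.09% lower. With the high fat diet, 9 of 30 (30%) were higher and 3 (10%) lower, where 12.2% of all genes were higher and 7.43% lower. Lipa, the lysosomal lipase that frees cholesterol from lipoprotein esters, read 2029 on chow and 8254 on high fat diet, 4.07-fold higher, and all 3 of its probe sets were at least 3.39-fold higher. Stard3, a sterol carrier of late endosomes, read 343 and 1535, 4.47-fold higher. Both act on cholesterol that has been taken up.

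Of 8 LXR targets and genes of oxysterol synthesis, 3 (37.5%) were at least 2-fold higher with the high fat diet and 1 (12.5%) was lower. Over all genes these shares were 12.2% and 7.43%. Pltp, which transfers phospholipid to HDL, read 3691 and 9095, 2.46-fold higher, and Cyp27a1, which makes an oxysterol, read 829 and 1835, 2.21-fold higher. Ch25h, another oxysterol enzyme, read 94.7 and 327, 3.45-fold higher, at levels below the median gene. The lower one was Apoc1, an apolipoprotein of the gene cluster that holds Apoe, at 5016 and 1209, 4.15-fold lower.

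Genes that supply acetyl units and fatty acids had no common direction. Aacs, which makes acetoacetyl-CoA from ketone bodies in the cytosol, read 1809 and 717, 2.52-fold lower. Of the 9 fatty acid genes of the SREBP-1 branch, Scd2 read 797 and 2513, 3.15-fold higher, Fads2 read 128 and 396, 3.10-fold higher, and Acaca read 139 and 60.1, 2.31-fold lower. The levels of Fads2 and Acaca were below the median gene on both fat arrays. The other Fads2 probe set was 1.03-fold lower. The median log2 difference of these 9 was -0.01.

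The chow array can also be set beside the vehicle cultures, a comparison chosen after the values were seen. Cell composition, culture and array handling all differ there and cannot be told apart, and it shares the chow array with the diet comparison. In chow fat, 7 of the 20 synthesis genes were at least 2-fold lower than in vehicle adipocytes and 4 at least 2-fold higher, where 12.3% of all genes were lower and 17.1% higher. The lower genes were Idi1, Fdps, Sqle, Lss, Msmo1, Hsd17b7 and Sc5d, and the higher ones Hmgcs1, Mvd, Cyp51 and Tm7sf2, by the brightest probe set of each. For 4 of these genes another probe set went the opposite way. The other Mvd probe set was 2.43-fold lower in chow fat and a second Cyp51 probe set was 1.20-fold lower. The other Lss probe sets were 1.56-fold and 1.32-fold higher and that of Sc5d was 1.15-fold higher. The brightest Lss probe set has the suffix for shared probes and read 1805 with vehicle, where the others read 58.3 and 110. The median gap between probe sets of 1 gene was 1.15 on the log2 scale in this comparison, over all genes with several. Centring the arrays lowers every difference of this comparison by 0.252. That takes Hmgcs1, at 1.247, just below 2-fold higher, and Dhcr7, at -0.819, past 2-fold lower.

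Fdps read 1441 in vehicle cultures and 1504 in forskolin cultures, against 158 in chow fat and 713 in high fat diet fat, and was 9.10-fold lower in chow fat than in vehicle adipocytes. Sqle read 1311 and 1418 in the cultures, against 154 and 331 in fat, and was 8.52-fold lower. On both fat arrays these genes were thus below both cultures. Msmo1 gave 1247, 1324, 279 and 1005 in the same order, 4.47-fold lower, and Hmgcs1 gave 1383, 1389, 3283 and 3597, 2.37-fold higher.

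Efflux genes were level or higher in chow fat. Abca1 was 11.0-fold and Abcg1 4.95-fold higher, whereas Apoe differed by 1.08-fold. By another Abca1 probe set the levels were 1165 with vehicle and 841 on chow, so the size and direction for Abca1 rest on the probe set. Of the 12 macrophage markers, 11 were higher in chow fat, and their part in this was not tested.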

How the data were processed

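RNA from 4 samples was hybridised to 1 Affymetrix array each, after biotin labelling, per the labels. Each deposited value is an intensity per probe set on a linear scale. The sources used here do not name the software, background correction or normalization. A second deposited table repeats these intensities, equal in 90504 of 90504 cells, and per the file headers adds the authors' fold changes with bounds and a promoter class, whose making is not described. Probe sets were named by gene ID through RefSeq GRCm38.p6 names (20834 by ID, 42 by symbol, 183 by synonym, 316 by the table's own symbol, 769 unnamed, 482 with several genes left out).

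Intensities were floored at the 10th percentile of their array and log2 transformed. Each gene took the probe set brightest on average on the log2 scale, among those with the most values. Empty cells numbered 74 to 271 an array. Counts cover genes at any level, beside the same share of all genes with values on both arrays. With 1 array per group there was no test, and precision is limited by that number. The steps were run on simulated arrays, where genes above a set level were changed alike in all their probe sets. Those arrays lack the disagreement between probe sets seen here, so they do not show that single calls are right. The members and lists were chosen with earlier results of these data known. All measured members were named, and of the other lists those 2-fold apart. Some genes that this rule selects are not reported here. The rule for printed promoters selected Fdps, Fdft1 and Abcg1, which the promoter table does not list, so others were chosen after their values were seen. Alternatives were 16 added before log2 in place of the floor, centring, quantile normalization, the median over probe sets, leaving out shared-suffix probe sets, the authors' folds, a level filter, and folds of 1.5 and 3. Python 3.11.15, pandas 2.3.3 and numpy 2.4.6 were used.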

Additional observations from a re-analysis of the deposited data

How the results depend on the processing

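With 1 array per group, alternatives were set against the median gap between probe sets of a gene, 0.26 on the log2 scale for forskolin and 0.68 for the diet. Of 186 member values recomputed in each comparison, 184 for forskolin and 182 for the diet moved by less than that. Part of this was fixed in advance. The probe set alternatives could not move the 15 members with 1 probe set. Centring shifted all values by less than the gap. The count of synthesis genes higher with forskolin was 1 and became 0 at a fold of 3. Centring the arrays lowered every diet difference by 0.21 on the log2 scale, the gap between the median gene levels. For the diet, the 6 higher genes became 3 after centring, 3 after quantile normalization and 3 at a fold of 3. The 4 lower genes became 2 with the median over probe sets and 0 at a fold of 3. Shares of all genes were not recomputed under the alternatives. Centring and quantile normalization each took Idi1, Sqle and Sc5d below 2-fold, as the median over probe sets did for Idi1 and Sc5d (lowest values 0.76, 0.90 and 0.68). Fdps, Msmo1, Dhcr7, Srebf2, Soat1, Pmvk and Fdft1 stayed beyond 2-fold in the same direction under all 6 alternatives of scaling, floor, probe set and authors' folds. For Msmo1, Dhcr7 and Pmvk, with 1 probe set each, the probe set alternatives could not differ. The authors' folds come from the same arrays. With the median over probe sets, Mvd moved to -0.26, Mvk to 1.60, Fdps to 1.11 and, for forskolin, Sc5d to -0.57 and Srebf2 to 0.08, and Ggps1 moved to -1.04 without shared-suffix probe sets. The synthesis median for the diet ran from 0.11 to 0.42 and the efflux median from 0.02 to 0.31. For chow fat against vehicle adipocytes, the 4 higher synthesis genes became 7 at a fold of 1.5 and 0 at a fold of 3. Centring lowered every difference of that comparison by 0.252. Beyond what each alternative's construction shows, the cause was not tested. No paired analysis was possible because each group held 1 array. Probe sets near the floor or near the top of the intensity range limit what a difference can show.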
